A study of Arabidopsis thaliana with 12 samples.

Results

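The transcripts described here are those of AT1G13370 and AT1G09200, a pair of histone H3 genes of *Arabidopsis thaliana*. They were chosen by gene, as histone H3 genes with an array probe that the platform annotation assigns to that gene alone: probe 3613 for AT1G13370 and probe 3043 for AT1G09200. They are 2 of the 691 genes with a probe of their own, on an array of 3439 probes. The series compared total RNA of wild-type plants of ecotype Columbia 0 in 2 groups of 6 samples. Control plants were grown in light of 80 µE, and recovery plants were exposed to 1000 µE for 1 h and then put back in 80 µE. Titles and descriptions state 2 h back at 80 µE where the source names state 1 h, and the control titles state 0 h, so time of sampling and light cannot be told apart. Both groups share genotype and growth light, and the labels name no age, no organ and no pooling of plants.

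Histone H3 is one of the core proteins around which DNA is wrapped in the nucleosome, and its tail carries many of the chemical marks that go with active or silent genes. Plants make H3.1, which is put into chromatin mainly as DNA is copied, and H3.3, which is put in at other times and is found over transcribed genes. In leaves, H3.1 transcripts are known as a sign of dividing cells. The reference gene table names AT1G09200 as an H3.1 gene, and it gives no variant for AT1G13370. Many histone H3 genes code for closely alike proteins. Where their transcripts are alike too, a probe may also bind RNA of other copies, and how far these probes do so was not tested.

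Samples 1 and 2, 3 and 4, and 5 and 6 of a group resembled each other, with correlations across features of 0.853 to 0.942 against 0.683 to 0.824 for other samples of the same group. No label ties a sample to its own plants, and p-values therefore reflect a spread among samples that may be technical. Samples 3 and 4 stood apart: across 3438 features their differences between recovery and control correlated at -0.03 with those of samples 1 and 2 and at -0.01 with those of samples 5 and 6, whereas the latter pairs correlated at 0.50. The results of both genes are therefore given with and without them. As deposited, the column medians of recovery 1, 2, 5 and 6 ran from 0.426 to 0.458, against 0.196 and 0.197 in recovery 3 and 4 and 0.200 to 0.284 in control, and values were quantile-normalised. Of 11 marker genes of photosynthetic tissue 3 were measured by a probe of their own, and all of them gave signal in all 12 samples, with LHB1B2 at deposited intensities of 13.3 to 20.1, PSAN at 4.76 to 11.5 and PRK at 1.18 to 2.69. None of the 4 root markers had one.

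Over all 12 samples, both histone H3 transcripts had a lower mean in recovery than in control plants, but neither difference passed the test over all features. The mean of AT1G13370 was 2.24-fold and that of AT1G09200 2.20-fold higher in control plants. The differences came from samples 1, 2, 5 and 6, in which control was 2.57-fold to 4.18-fold above recovery. In samples 3 and 4 the log2 difference between recovery and control was 0.05 for AT1G13370 and 0.01 for AT1G09200.

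AT1G13370 had deposited intensities, on a linear scale with a ceiling of 100, of 0.696, 0.611, 0.851, 0.800, 0.544 and 0.429 in control 1 to 6. Its intensities in recovery 1 to 6 were 0.406, 0.335, 0.829, 0.799, 0.193 and 0.325. Recovery 1, 2, 5 and 6 were thus below all 6 control samples, and recovery 3 and 4 were among the highest samples of either group, so the groups overlap. After quantile normalisation its log2 intensities in control 1 to 6 were -0.54, -0.71, -0.12, -0.21, -0.46 and -0.75. In recovery 1 to 6 they were -1.98, -2.27, -0.08, -0.15, -3.07 and -2.21. As on the deposited scale, recovery 1, 2, 5 and 6 were below every control sample. The mean log2 intensity was -0.47 ± 0.26 (SD, n = 6) in control and -1.63 ± 1.23 (SD, n = 6) in recovery samples, a difference of -1.16 with a standard error of 0.49 and a 95% interval of -2.22 to -0.10. Its adjusted p in limma was 0.218 (unadjusted p = 0.0339), where 3.03% of all features passed an adjusted p under 0.05 and 18.3% an unadjusted one. An exact two-sided permutation test over the 12 samples gave p = 0.0584. With each pair of samples averaged, 3 against 3, the exact p was 0.4, and 0.1 is the smallest p that design allows.

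AT1G09200, the H3.1 gene, had deposited intensities of 0.241, 0.282, 0.508, 0.551, 0.366 and 0.414 in control 1 to 6. In recovery 1 to 6 its intensities were 0.162, 0.231, 0.499, 0.489, 0.198 and 0.214. Here too recovery 1, 2, 5 and 6 were the 4 lowest samples, while recovery 3 and 4 were above control 1, 2, 5 and 6. Its normalised log2 intensities were -1.96, -1.72, -0.74, -0.67, -0.98 and -0.80 in control 1 to 6. Those in recovery 1 to 6 were -3.53, -2.88, -0.68, -0.70, -3.04 and -2.86. Control 1 and 2 lay below the other controls and above recovery 1, 2, 5 and 6, a step that AT1G13370 did not show. The means were -1.14 ± 0.55 in control and -2.28 ± 1.26 in recovery samples (SD, n = 6 per group), and the difference of -1.14 had a standard error of 0.53 and a 95% interval of -2.29 to 0.01. Its adjusted p in limma was 0.281 (unadjusted p = 0.0525), and the exact two-sided permutation p was 0.0887 over 12 samples and 0.4 over averaged pairs.

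**Figure D1:**
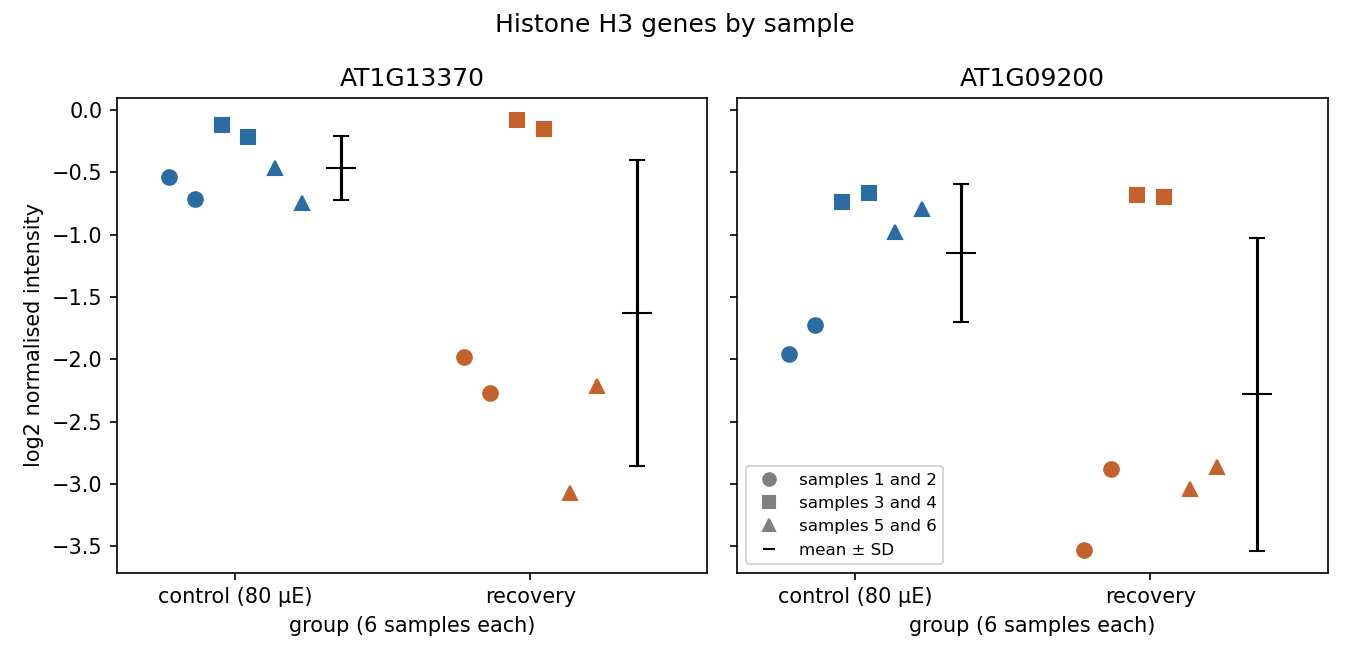
Log2 quantile-normalised intensity of AT1G13370 (left) and AT1G09200 (right) in each of 6 control and 6 recovery samples; symbols mark the pairs of samples, and the black bars give the group mean and SD. Recovery 3 and 4 lie at control level for both genes, and the other 4 recovery samples lie below every control sample.

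In recovery samples the spread of both genes lay between pairs of samples rather than within them. Within pairs the SD of the log2 level, pooled over the pairs of both groups, was 0.28 for AT1G13370 and 0.21 for AT1G09200. The SD between the 3 pair means was 0.26 and 0.61 in control, and 1.34 and 1.38 in recovery samples, in that order of genes. The SD within pairs was not computed for either group alone, and it is not compared with the SD between control pair means here. Recovery pairs were not all tight: AT1G13370 was at -3.07 and -2.21 in recovery 5 and 6, and AT1G09200 at -3.53 and -2.88 in recovery 1 and 2.

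Pair by pair, AT1G13370 had a log2 difference between recovery and control of -1.50 in the first pair (samples 1 and 2), 0.05 in the second (3 and 4) and -2.04 in the third (5 and 6). For AT1G09200 the corresponding differences were -1.36, 0.01 and -2.06. In samples 5 and 6 this is a 4.11-fold and a 4.18-fold higher level in control plants, and in samples 1 and 2 a 2.82-fold and a 2.57-fold higher one. Set among the differences of all features in the same pair, AT1G13370 lay at percentile 4.48 in the first pair, 57.3 in the second and 2.82 in the third. AT1G09200 lay at percentiles 5.90, 55.9 and 2.71. Both genes were thus near the low end of the array in the first and the last pair and near its middle in the other. A drop of at least 1 on the log2 scale in both samples 1 and 2 and samples 5 and 6, as both genes showed, was found in 5.26% of features.

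On the deposited scale the differences in the first and the third pair were smaller. There AT1G13370 had log2 differences of -0.82, -0.02 and -0.95 in the 3 pairs in the same order. AT1G09200 had -0.43, -0.10 and -0.92. The median of all features was 0.56, -0.18 and 0.90. Both genes were therefore lower in recovery than in control in samples 1, 2, 5 and 6 without normalisation too, while the median of all features was higher in them. The part of this shift in the result was not tested.

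Without samples 3 and 4 of both groups, 4 samples against 4, both genes passed the limma test over all features. AT1G13370 fell by 1.77 on the log2 scale with a standard error of 0.25 and a 95% interval of -2.34 to -1.19 (adjusted p = 0.00839). AT1G09200 fell by 1.71 with a standard error of 0.31 and an interval of -2.43 to -0.99 (adjusted p = 0.0168). In that comparison 12.1% of all features passed in either direction and 6.20% passed as lower in recovery. Every recovery value was below every control value for both genes, as for 10.2% of features. The exact permutation p was 0.0286 for each gene, the smallest that 4 samples against 4 can give. Samples of a pair enter this fit as if independent, and the samples left out were known from earlier results to stand apart.

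Whether the difference between groups changed with the pair was tested by an interaction of pair and group in limma over all features, a fit chosen after the data had been seen. It passed for AT1G13370 (adjusted p = 0.0170) and for AT1G09200 (adjusted p = 0.00830), as it did for 24.9% of all features. The spread this test rests on is that within pairs.

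**Figure D2:**
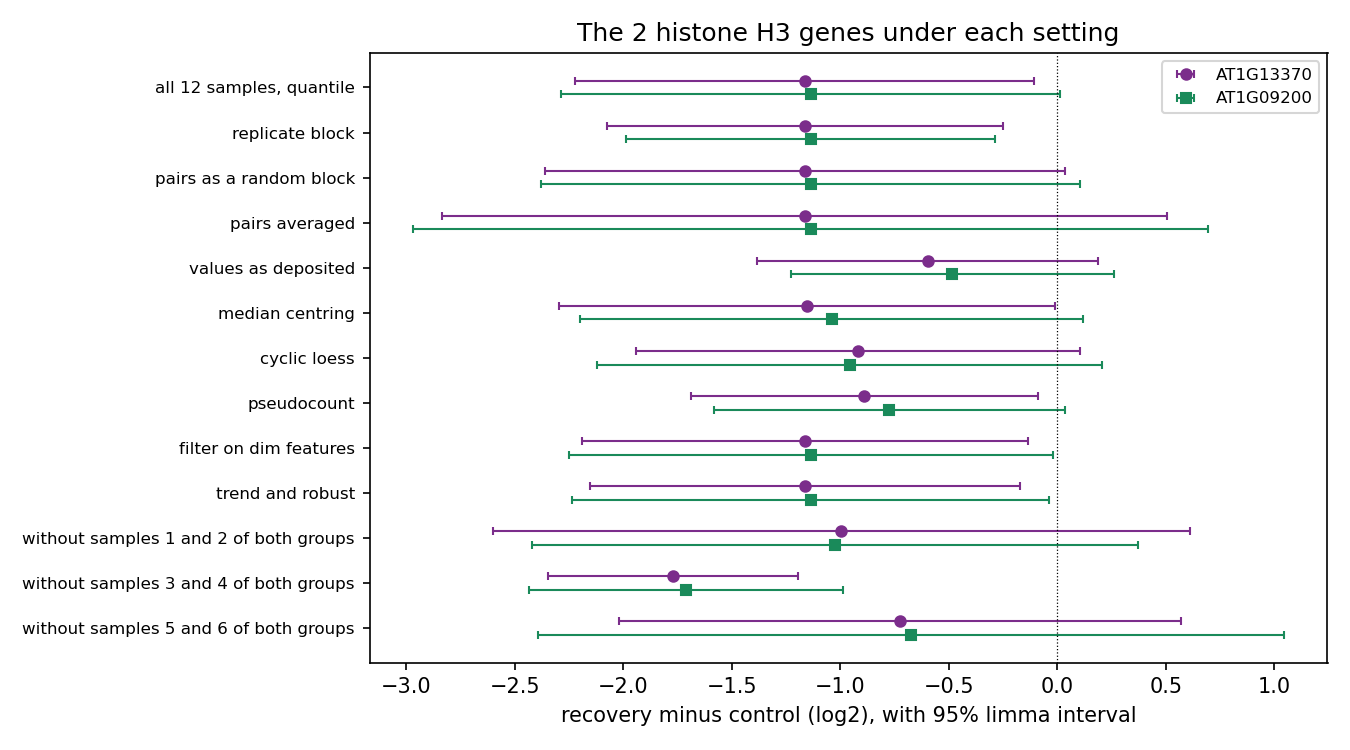
Log2 difference between recovery and control for AT1G13370 (circles) and AT1G09200 (squares) under each setting, with 95% limma intervals. All differences are below 0, and both intervals are farthest from 0 without samples 3 and 4.

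The level of one probe cannot be ranked against that of another, since brightness also depends on the probe, but the log2 difference between the probes within a sample can be followed across samples. AT1G13370 minus AT1G09200 was 1.42, 1.01, 0.62, 0.45, 0.52 and 0.05 in control 1 to 6. In recovery 1 to 6 it was 1.55, 0.61, 0.61, 0.54, -0.03 and 0.65. The difference was above 0 in 11 of 12 samples, and the groups overlapped over nearly their whole range. Its mean was 0.68 ± 0.48 in control and 0.65 ± 0.51 in recovery samples (SD, n = 6 per group). The change between groups was -0.03, with an exact two-sided permutation p of 0.955 and a 95% interval of -0.64 to 0.57 from the same test. By pair, it was -0.14, 0.04 and 0.02. No unequal change of the 2 transcripts was detectable, which does not show that they changed alike.

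**Figure D3:**
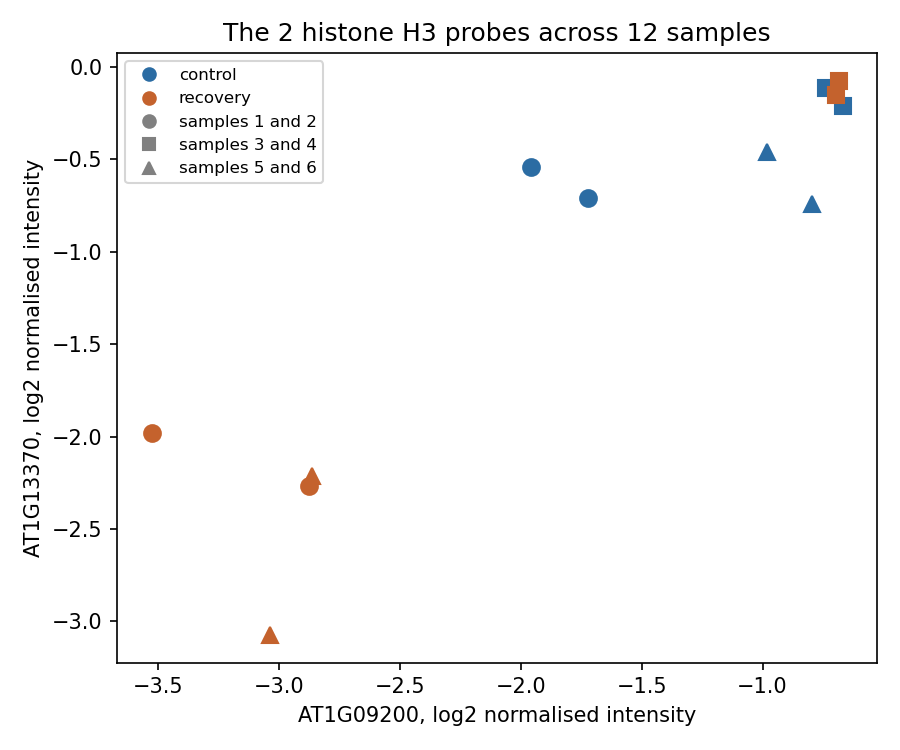
Log2 normalised intensity of AT1G13370 against that of AT1G09200 in the 12 samples, coloured by group and with a symbol for each pair. Recovery 1, 2, 5 and 6 lie together at the low end of both axes, and recovery 3 and 4 lie with control 3 and 4 at the high end.

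Likeness of pattern was measured by Pearson's r over the 12 samples on the normalised log2 scale, among 681 other genes with a probe of their own and a level that varied. It is given as a description, since the 2 samples of each pair are alike and recovery 1, 2, 5 and 6 lie apart from the other 8 samples. AT1G13370 was the third most alike gene to AT1G09200 (r = 0.91), and AT1G09200 the fourth most alike to AT1G13370, where the median r over genes was 0.02 and 0.01. AT5G11550 was closest to both, with r = 0.94 to AT1G13370 and 0.93 to AT1G09200. Its differences by pair were -2.47, 0.30 and -2.01. Next for AT1G13370 came AT4G32340 (r = 0.92), with 1 sample at the floor of the scale, and AT3G54210 (r = 0.92). AT3G54210 codes for a protein of the large subunit of the plastid ribosome, and its differences by pair were -1.28, -0.59 and -1.61. For AT1G09200 the second was AT5G19750 (r = 0.92). Over all 12 samples these 4 genes did not pass in limma, with adjusted p from 0.109 to 0.369.

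Of 14 histone H3 genes listed, 3 were measured by a probe that no other gene shares, and 0 of these were called in either direction, where 3.03% of all features were, so that the count says little. The third beside AT1G13370 and AT1G09200 was AT5G65360, which the reference gene table also names as H3.1. Its deposited intensities were 0.0206, 0.00552, 0.0302, 0, 0.0106 and 0 in control 1 to 6 and 0.00465, 0.102, 0.0295, 0, 0.0605 and 0 in recovery 1 to 6. With 7 of 12 samples at the floor, its log2 difference of -0.03 (standard error 0.27, adjusted p = 0.973) says little about its transcript. No gene of the lists of histones H4 (8 genes), H2A (13), H2B (11) and H1 (3) had a probe of its own. The same held for histone chaperones (13), enzymes that modify H3 (21) and DNA replication and S phase (20). Whether transcripts of these lists moved with AT1G09200 was therefore not analysed here.

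A further 4 probes were each assigned to 2 or 3 histone H3 genes and to no other gene. They name no single gene and are given by probe number. Probe 3667, shared by 2 H3.1 genes, had log2 differences by pair of -1.49, 0.44 and -0.89. Over all samples it differed by -0.65 (standard error 0.77, adjusted p = 0.697). Without recovery 2 it differed by -0.09 and on the deposited scale by -0.04, where samples 5 and 6 were at -0.05. Without samples 3 and 4 its difference was -1.19 (adjusted p = 0.385). Probe 3127, shared by 2 H3.3 genes, had differences of -1.08, 0.05 and -1.68 and -0.91 over all samples with a standard error of 0.34 (adjusted p = 0.177). Without samples 3 and 4 it fell by 1.38 (adjusted p = 0.0420).

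Probe 2392 holds those same H3.3 genes and 1 more. Its log2 levels ran from 0.51 to 1.06 in control samples. In recovery 1 to 6 they were 0.56, 0.93, 1.84, 1.75, 1.06 and 0.94, so that recovery 3 and 4 were the highest samples. Its differences by pair were 0.11, 1.26 and -0.04, and over all samples 0.45 with a standard error of 0.24 (adjusted p = 0.364), which was -0.01 after median centring. Without samples 3 and 4 its difference was 0.04 (adjusted p = 0.937). Probe 2995, shared by the centromeric H3 gene and a male-gamete H3 gene, had differences of -0.78, 0.70 and -1.66, and -0.58 with a standard error of 0.37 over all samples (adjusted p = 0.437), which was 0.01 on the deposited scale. Its control 3 stood low at a log2 level of -3.06, against -1.56 in control 4 and -1.59 and -1.64 in recovery 3 and 4, and without control 3 the difference over all samples was -0.90 (unadjusted p = 0.00546, adjusted p = 0.113 in limma). Without samples 3 and 4 its difference was -1.22 (adjusted p = 0.0216). In 3 of the 4 shared probes the normalised level was lower in recovery in both the first and the last pair, as in 30.8% of all features. On the deposited scale probe 2995 was at -0.07 in the first pair, so that this probe and probe 3667 were each barely below 0 in 1 pair.

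**Figure D4:**
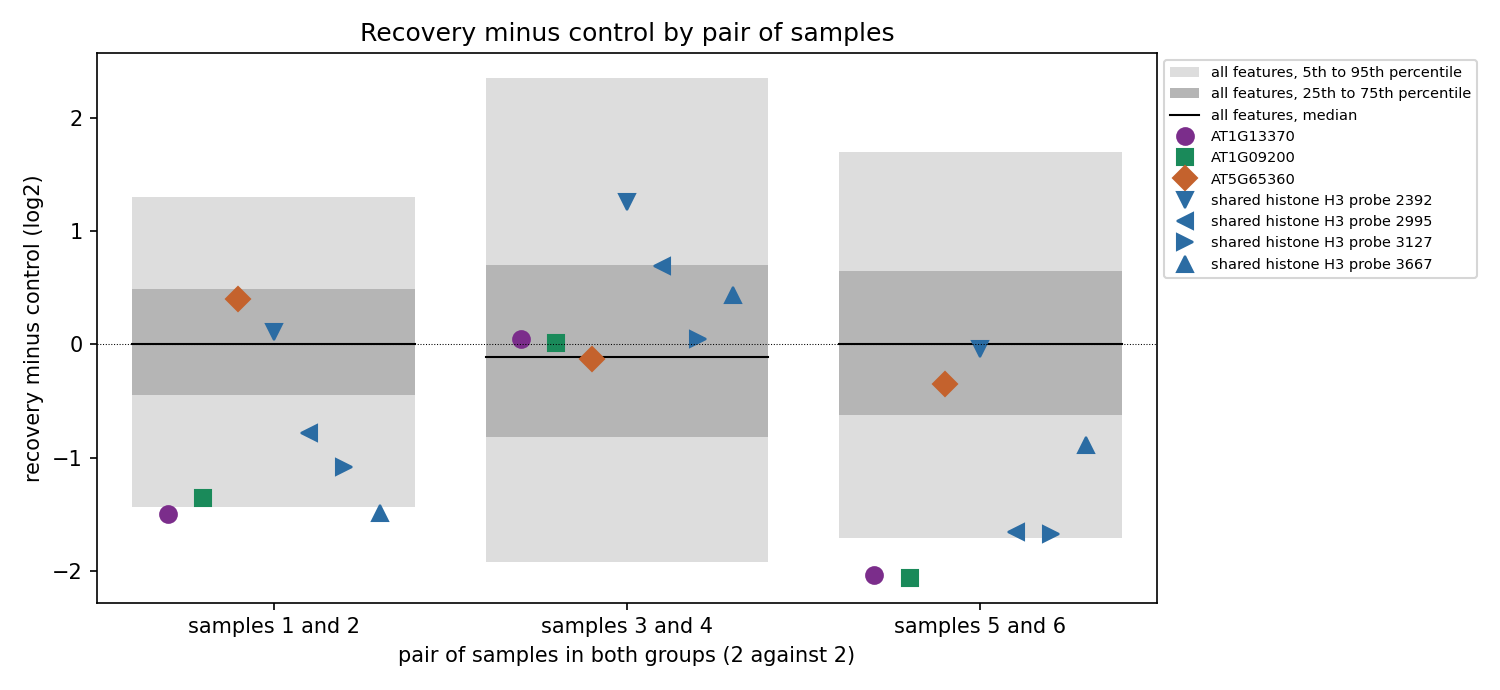
Log2 difference between recovery and control in each pair of samples for AT1G13370, AT1G09200, AT5G65360 and the 4 probes shared by several histone H3 genes; grey bands give the 5th to 95th and the 25th to 75th percentile of all 3438 features and the black line their median. Both genes lie near or below the 5th percentile in samples 1 and 2 and in samples 5 and 6, and near the median in samples 3 and 4.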

How the data were processed

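Total RNA of 12 samples was measured on 1-channel arrays. The authors deposited linear intensities between 0 and 100; how they corrected background and scaled arrays, and the array type, is not given in the sources used here. Group and number were read from sample titles. Because column medians differed by more than 1%, intensities were quantile-normalised (limma 3.58.1, R 4.3.3), set to at least the 5th percentile of positive values (0.0298, -5.07 on the log2 scale), and log2 was taken. Probes of 1 gene were named through the platform annotation and the RefSeq gene table (690 of 692 matched); probes with several genes (870) or none (1877) entered as features. The 2 probes of 1 gene were averaged, leaving 3438 features. Groups were compared by limma (lmFit and eBayes, no covariate) over all features, with two-sided tests and Benjamini-Hochberg adjusted p-values; an adjusted p under 0.05 counted as passing. Where a sample or pair was left out, the normalisation over all 12 samples was kept. Single values were also tested by exact permutation of samples, and the interval of a change is the range of shifts, in steps of 0.01, that this test kept. Same-numbered samples of the groups had deviations from the group means that correlated at 0.110 to 0.462, which met the condition for pairing (all over 0.1); the main tests were unpaired, and a fit with the number as a block was an alternative. The fits were tested on simulated data with known changes. Named were the 2 genes, up to 4 genes of each of 10 lists (118 genes) by smallest p, and the 3 genes most alike to each; the shared histone H3 probes were added after values were seen. The genes and lists were chosen with earlier results of these data known. The number of arrays limits precision, and the depth behind an intensity is unknown.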

Additional observations from a re-analysis of the deposited data

Results flagged for a closer look

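For each feature named above, and for the difference between the 2 genes, the lowest and the highest of the 6 samples of a group were compared with their nearest neighbour, the gap being divided by the range of the 6. Of 30 such groups 1 was past Dixon's critical value, where chance gives about 1 in 20 for independent values, and the samples of a pair are not independent. It was the control group of probe 2995, shared by 2 histone H3 genes, in which control 3 had a log2 level of -3.06 and the next lowest sample, control 4, one of -1.56 (gap share 0.657). No group of AT1G13370 or AT1G09200 was among them.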

How the results depend on the processing

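The differences of AT1G13370 and AT1G09200 kept their sign under all 24 alternatives, and their calls changed in 1, the fit without samples 3 and 4 of both groups, where the values were -1.77 and -1.71. With 1 sample left out at a time they ran from -1.47 to -0.87 for AT1G13370 (adjusted p from 0.0948 to 0.379) and from -1.46 to -0.89 for AT1G09200 (0.133 to 0.445). Without normalisation, where all features had a median difference of 0.43, they were -0.60 and -0.48, with adjusted p of 0.349 and 0.428. The replicate block gave adjusted p of 0.128 and 0.114. Under the same pairing, the test of the difference between the genes, by sign changes over 6 numbers, gave an exact p of 0.969, and no call on either gene changed. With pairs as a random block the adjusted p was 0.556 and 0.591, and with pairs averaged 0.776 and 0.802. The count of histone H3 genes called was 0 of 3 and became 2 without samples 3 and 4. These were AT1G13370 and AT1G09200 themselves, in a fit where 12.1% of all features were called and 6.20% were called lower. The count of features called was 104 and became 3 with pairs as a random block, 0 with pairs averaged (203 at an unadjusted p under 0.05), 65 with median centring, 60 with cyclic loess, 28 without samples 1 and 2, 416 without samples 3 and 4, 10 without samples 5 and 6, and 42 to 93 with 1 sample left out. It was 106 with the replicate block, 58 of them among the 104. On the deposited values 79 features were higher and 30 lower, after median centring 14 and 51, against 41 and 63.

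Some differences changed sign. The change of AT1G13370 minus AT1G09200 was 0.039 with cyclic loess, 0.030 without samples 1 and 2, and -0.20 to 0.12 with 1 sample left out. AT5G65360, mostly at the floor, was 0.43 as deposited, 0.24 with cyclic loess, 0.025 without samples 3 and 4, 0.13 without samples 5 and 6, and -0.13 to 0.13 with 1 sample left out. Probe 2995 went from -0.58 to 0.011 as deposited, and probe 2392 from 0.45 to -0.010 after median centring. The cause of these changes was not tested. The number of independent plants behind the 12 arrays is not known, and it limits every p given here.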
